A study of Mus musculus with 5 samples.

Results

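The genes described here are 10 genes of hepatic glucose production and insulin signalling. Pck1, G6pc, Fbp1 and Slc37a4 encode enzymes and a carrier of glucose production, Igfbp1 and Igfbp2 encode secreted binding proteins of insulin-like growth factors, Insr, Irs1 and Irs2 encode the insulin receptor and its docking proteins, and Foxo1 encodes a transcription factor that insulin inactivates. They were chosen by name, but with earlier results of these data known. All 10 were found among the 19938 genes whose probe sets carried exactly 1 gene symbol. Where a gene had more than 1 such probe set, the brightest on average stood for it.

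The livers came from 5 male wildtype C57BL/6N mice aged 5 to 6 months, which form a single group, with 1 microarray per mouse. All 5 had been injected on 5 successive days with 65 mg/kg streptozotocin, a toxin of the insulin-producing beta cells that is used as a model of type 1 diabetes, when they were 10 to 16 weeks old. From 2 weeks after streptozotocin they were fed bezafibrate, a fibrate drug that activates peroxisome proliferator-activated receptors, for 8 weeks. The protocol names chow with 0.25% or 0.5% bezafibrate and the labels do not say which of these each mouse ate, nor its glucose or insulin level or when it last fed. The series asks whether bezafibrate improves insulin sensitivity in such mice, but mice without either compound were not analysed here, so the values show levels in doubly treated livers and differences between these mice, not an effect of a treatment. Mice are called by the replicate numbers 1 to 5 of the labels, and what remained of the beta cells of each mouse is not given.

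In the fasted state the liver makes glucose from lactate, amino acids and glycerol. PEPCK, the product of Pck1, and fructose-1,6-bisphosphatase, the product of Fbp1, catalyse steps of this route that glycolysis cannot run backwards, and glucose-6-phosphatase, the product of G6pc, releases free glucose inside the endoplasmic reticulum, into which the Slc37a4 product carries its substrate. Insulin binds its receptor, the receptor phosphorylates IRS1 and IRS2, and the kinase AKT then drives FOXO1 out of the nucleus, which lowers the transcription of Igfbp1, G6pc, Pck1 and Irs2. Glucagon acts in the opposite direction through cAMP and the factor CREB.

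Stretches just before the transcription start of Igfbp1, G6pc, Pck1 and Irs2 are shown because insulin and cAMP are known to act on these genes through their promoters and because these 4 genes had their lowest value in the same mouse, as described further on. Each is the 250 bases before the start, read 5′ to 3′ along the gene, from RefSeq on build GRCm38.p6. Capitals mark matches, on either strand, to the letters CAAAACA, read as TGTTTTG on the opposite strand, which belong to the insulin response element known from the Igfbp1 promoter, and to the letters TGACG, read as CGTCA on the opposite strand, the half-site of the cAMP response element.
Igfbp1, chr11:7197537-7197786, plus strand: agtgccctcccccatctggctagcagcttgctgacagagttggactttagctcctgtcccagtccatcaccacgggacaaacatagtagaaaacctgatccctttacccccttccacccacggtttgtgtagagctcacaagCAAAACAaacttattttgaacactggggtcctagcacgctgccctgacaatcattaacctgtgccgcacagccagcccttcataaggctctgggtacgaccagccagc
G6pc, chr11:101367466-101367715, plus strand: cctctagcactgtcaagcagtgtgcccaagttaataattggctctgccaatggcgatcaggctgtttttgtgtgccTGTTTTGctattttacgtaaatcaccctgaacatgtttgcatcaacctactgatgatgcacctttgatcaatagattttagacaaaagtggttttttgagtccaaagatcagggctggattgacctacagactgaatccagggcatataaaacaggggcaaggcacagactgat
Pck1, chr2:173152823-173153072, plus strand: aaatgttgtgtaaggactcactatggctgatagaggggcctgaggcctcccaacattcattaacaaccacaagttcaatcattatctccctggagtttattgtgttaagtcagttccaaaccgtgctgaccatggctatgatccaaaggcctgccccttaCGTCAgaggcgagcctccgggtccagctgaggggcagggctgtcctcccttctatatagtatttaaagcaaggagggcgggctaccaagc
Irs2, chr8:11008930-11009179, minus strand: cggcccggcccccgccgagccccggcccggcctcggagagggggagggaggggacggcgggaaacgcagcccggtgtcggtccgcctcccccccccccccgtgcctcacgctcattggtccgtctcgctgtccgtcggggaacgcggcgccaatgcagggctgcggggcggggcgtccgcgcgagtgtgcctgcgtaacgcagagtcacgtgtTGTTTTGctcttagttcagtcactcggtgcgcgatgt

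Windows of this kind were given for 9 of the 10 genes, in 12 windows since some genes have several starts, and not for Insr. CAAAACA or its opposite-strand form occurred in the windows of Igfbp1 (108 to 102 bases before the start), G6pc (174 to 168), Irs2 (37 to 31) and Irs1 (111 to 105 and 32 to 26). These were 4 of the 12 windows, against 5.56% of the 32851 windows of all genes. Igfbp1 is counted here although the letters are known from its own promoter, so the share lends no separate support. Of the genes lowest in mouse 1, Pck1 had no such match, and Irs1, which had matches, was not lowest there. TGACG or CGTCA occurred in the window of Pck1 (90 to 86 bases before the start), in that of Irs1 and in overlapping windows of Slc37a4. That made 4 of the 12 windows, against 17.8% of all windows. Slc37a4 had 3 of the 12, so 1 gene could count more than once. GTAAACA, read as TGTTTAC on the opposite strand and a binding element of FOXO factors, was found in 0 of the 12 windows and in 3.17% of all windows. No matches overlapped each other within a window. A match describes the letters only, and nothing here measured binding of a factor.

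Values are log2 signals as the authors deposited them, so that a difference of 1 corresponds to a 2-fold difference in signal, and signals are not ranked between genes, since each probe set has its own efficiency. The brightness floor of an array was the 95th percentile of 1210 probe sets for olfactory and vomeronasal receptors, which liver is not known to express, and lay between 5.59 and 6.07. Array 4 stood apart. Its correlation with the other arrays across probe sets was 0.971 to 0.988, against 0.986 to 0.993 among the others, it had the highest floor, and 76.0% of the receptor probe sets were brightest on it. Of the 13336 genes tested below, however, 36.5% were lowest on array 4, the largest share of any array, and 8.47% were highest. Where array 4 set the spread of a gene described below, the SD without it is given. Markers fitted the label of the tissue, with all 5 measured hepatocyte markers (of 7 listed) above the floor in every liver and 0 of 4 measured pancreas markers of 6 listed (Ins2, Gcg, Cpa1 and Prss2).

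All 10 genes exceeded the floor in all 5 livers, which 60.0% of the 19938 genes did. The smallest margin was that of Irs1, 1.80 above the floor of array 4. The mean of each gene over the mice, its SD and the mouse with its extreme values are given below in the order of the pathway. As a yardstick for the spread, limma supplied the SD expected at the same mean level, and an upper-tail F test compared the 2 variances over all 14586 probe sets whose mean exceeded the floor of the means, 5.77. None of the 10 genes passed this test after Benjamini-Hochberg adjustment (limma, adjusted p between 0.144 and 1.00), and 0.357% of all tested probe sets did. At an unadjusted p under 0.05 limma counted 4 of the 10 genes, Igfbp1, Pck1, G6pc and Irs2, against 6.34% of all tested probe sets. With 1 array per mouse a single value has no error of its own and the spread between mice includes that of the measurement, so neighbouring mice in an order were not tested against each other.

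**Figure D1:**
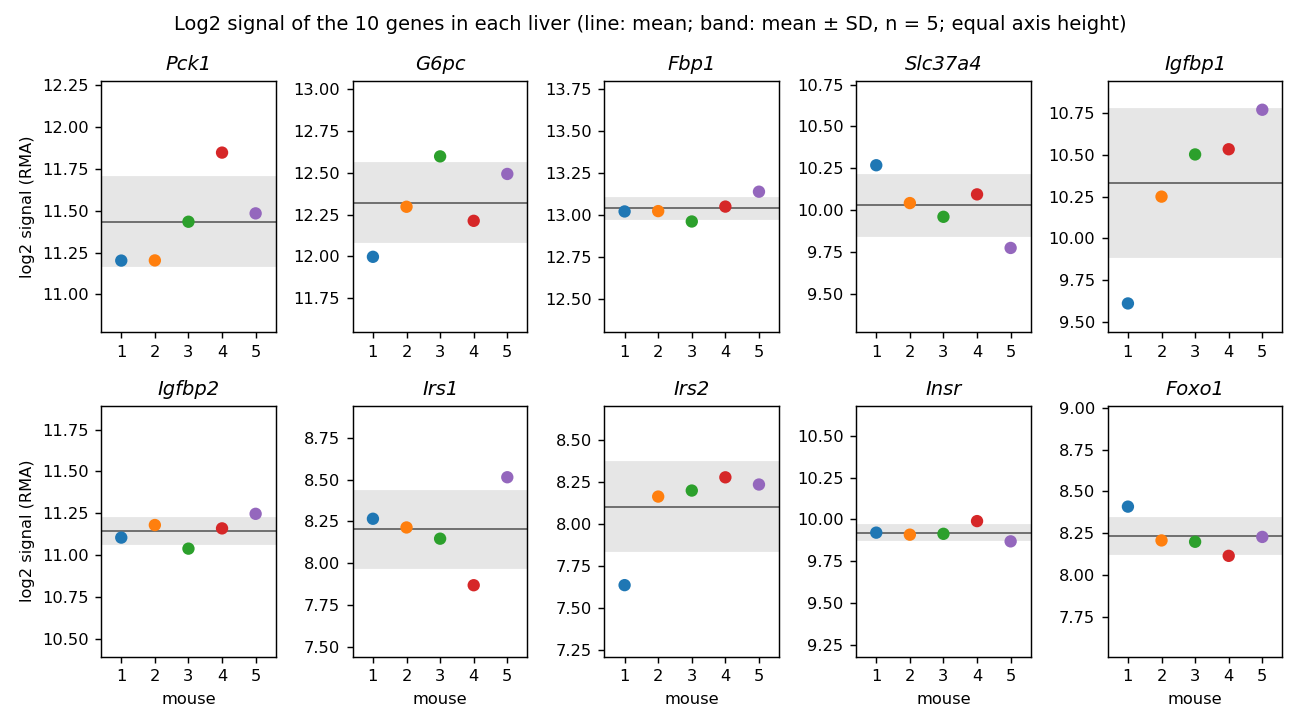
Log2 signal (vertical axes, all of equal height) of each of the 10 genes in the livers of mice 1 to 5 (horizontal axes). Points are single livers, lines the mean and bands the mean ± SD (n = 5). Igfbp1 and Irs2 lie lowest in mouse 1, Pck1 highest in mouse 4, and Insr and Fbp1 vary least.

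Among the genes of glucose production, Pck1 and G6pc differed between the mice by about the same amount but not in the same mice. Pck1, whose product commits oxaloacetate to glucose synthesis, had log2 signals of 11.20, 11.20, 11.43, 11.85 and 11.48 in mice 1 to 5. Mouse 4 stood above the others, and mice 1 and 2 were at the same low level, 0.001 apart. Its mean was 11.43 ± 0.26 (SD, n = 5) and its range 1.56-fold, with an SD 2.94 times that expected at its level (limma adjusted p = 0.404). Without mouse 4 the SD of Pck1 was 0.15 (limma adjusted p = 0.988). The whole array of mouse 4 had the highest floor, and 76.0% of the receptor probe sets were brightest on it. Of all tested genes, 36.5% were lowest on it and 8.47% highest. Pck1 lay at least 5.50 above the floor on every array. The part of array 4 in the high Pck1 value was not tested.

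G6pc had log2 signals of 12.00, 12.30, 12.60, 12.21 and 12.49 in mice 1 to 5. G6pc was lowest in mouse 1 and highest in mouse 3, and mouse 4, highest for Pck1, had the next lowest value of G6pc. The mean was 12.32 ± 0.24 (SD, n = 5) and the range 1.52-fold, 2.94 times the expected SD (limma adjusted p = 0.408). After each gene was centred on its mean, the log2 difference Pck1 minus G6pc was 0.09, -0.21, -0.28, 0.52 and -0.12 in mice 1 to 5. The SD of that difference, 0.32, was larger than the SD of either gene.

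Slc37a4, the carrier that works with glucose-6-phosphatase, had log2 signals of 10.27, 10.04, 9.96, 10.09 and 9.77 in mice 1 to 5. Its highest value was in mouse 1, where G6pc was lowest, and its lowest value in mouse 5. The mean was 10.03 ± 0.18 (SD, n = 5), with a range of 1.41-fold and a limma adjusted p of 0.969. Once centred, G6pc minus Slc37a4 was -0.56 in mouse 1 and 0.43 in mouse 5, with an SD of 0.40 over the 5 mice.

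Fbp1 had log2 signals of 13.02, 13.02, 12.96, 13.05 and 13.14 in mice 1 to 5, a range of 1.13-fold. Its SD of 0.06 was 0.884 times the expected SD (limma adjusted p = 0.992), and 0.04 without mouse 5. The livers were thus close to each other in the Fbp1 signal, which lay near the brightest signals on the arrays (14.00 to 14.12), and whether the scanner or the chemistry compresses differences there was not tested.

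Most other enzymes and carriers of glucose production had smaller SDs than Pck1 and G6pc, except Fbp2 and G6pc3, whose SDs were slightly above that of G6pc. Of 23 listed, 17 were measured and 16 tested. None of the 16 passed the limma test, adjusted or at an unadjusted p under 0.05, and their median SD was 0.11, against 0.12 over all 13336 tested genes. Pcx, which encodes pyruvate carboxylase, the entry step from pyruvate, had signals of 10.99, 10.97, 10.89, 10.83 and 10.64 in mice 1 to 5. The glucose transporter gene Slc2a2 had 10.37, 9.99, 10.44, 10.31 and 10.10, and Pck2, the mitochondrial isoform of PEPCK, 7.05 to 7.18. The widest of the list were Fbp2, the isoform known from muscle, and G6pc3, a widely expressed relative of G6pc. Fbp2 had an SD of 0.25 (0.16 without mouse 1) and its lowest value of 7.61 in mouse 1. G6pc3 had an SD of 0.24 (0.18 without mouse 4). The 6 listed genes without a probe set of 1 symbol were not analysed here.

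The binding protein genes differed from each other in spread. Igfbp1, whose product binds insulin-like growth factors in blood and whose transcription insulin represses within hours, had log2 signals of 9.61, 10.25, 10.50, 10.53 and 10.77 in mice 1 to 5. Mouse 1 stood below the other mice by 0.64 or more, and mouse 5 had the highest value. The mean was 10.33 ± 0.44 (SD, n = 5) and the range 2.23-fold, the widest of the 10 genes, and 1.29% of all tested genes had a larger SD. The SD was 4.34 times that expected at its level (limma adjusted p = 0.144). In mouse 1 the signal was 1.87-fold below the mean of the other mice. Without mouse 1 the SD was 0.21 (limma adjusted p = 0.873), without mouse 4 it was 0.50 (0.315), and over the 12 alternative settings the adjusted p lay between 0.0707 and 0.873.

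Igfbp2, a binding protein that is also repressed by insulin in liver and more slowly than Igfbp1, had log2 signals of 11.11, 11.18, 11.04, 11.16 and 11.25 in mice 1 to 5. All mice lay within 1.16-fold of each other. Its mean was 11.15 ± 0.08 (SD, n = 5), and 78.5% of all tested genes had a larger SD. Mouse 5 had the highest value of both binding protein genes, but mouse 1, lowest for Igfbp1, was not lowest for Igfbp2, whose lowest value was in mouse 3. Centred on their means, Igfbp1 minus Igfbp2 was -0.68 in mouse 1 and between -0.12 and 0.34 in the others.

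The receptor gene Insr was the steadiest of the 10. Its log2 signals were 9.92, 9.91, 9.91, 9.99 and 9.87 in mice 1 to 5, a range of 1.09-fold. The mean was 9.92 ± 0.04 (SD, n = 5), and 96.1% of all tested genes had a larger SD. Without mouse 4 the SD was 0.02. Its other probe set with 1 symbol gave signals of 9.48, 9.62, 9.49, 9.51 and 9.50, also within a narrow range (SD 0.06), but with the highest value in mouse 2 and not in mouse 4, so the order of the mice in Insr depended on the probes.

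The docking protein genes Irs1 and Irs2 differed in the mice that stood out. Irs2, which FOXO1 induces and insulin represses, had log2 signals of 7.64, 8.17, 8.20, 8.28 and 8.24 in mice 1 to 5. In mouse 1 the signal was 0.667 times the mean of the others, which were within 0.12 of each other. It was the only one of the 10 genes with 1 mouse apart by the ratio of gap to range (Dixon's 95% limit), as were 5.65% of all tested genes. The mean was 8.10 ± 0.26 (SD, n = 5), 2.14 times the expected SD (limma adjusted p = 0.770). Without mouse 1 the SD was 0.05 (limma adjusted p = 0.998). Irs1 had log2 signals of 8.27, 8.21, 8.15, 7.87 and 8.51 in mice 1 to 5, highest in mouse 5 and lowest in mouse 4. Its mean was 8.20 ± 0.23 (SD, n = 5) with a range of 1.56-fold and a limma adjusted p of 0.916, and the SD was 0.16 without mouse 4. A further Irs1 probe set lay below the floor on every array (4.26 to 4.86) and was not used. After centring, Irs2 minus Irs1 was -0.53 in mouse 1 and 0.51 in mouse 4.

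Foxo1 had log2 signals of 8.41, 8.21, 8.20, 8.12 and 8.23 in mice 1 to 5. It was highest in mouse 1, the mouse with the lowest Igfbp1, Irs2 and G6pc, and the other mice lay within 0.11 of each other. The mean was 8.23 ± 0.11 (SD, n = 5), 0.880 times the expected SD (limma adjusted p = 0.992), and the SD was 0.05 without mouse 1. FOXO1 is controlled mainly by phosphorylation and location in the cell, which arrays do not measure.

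**Figure D2:**
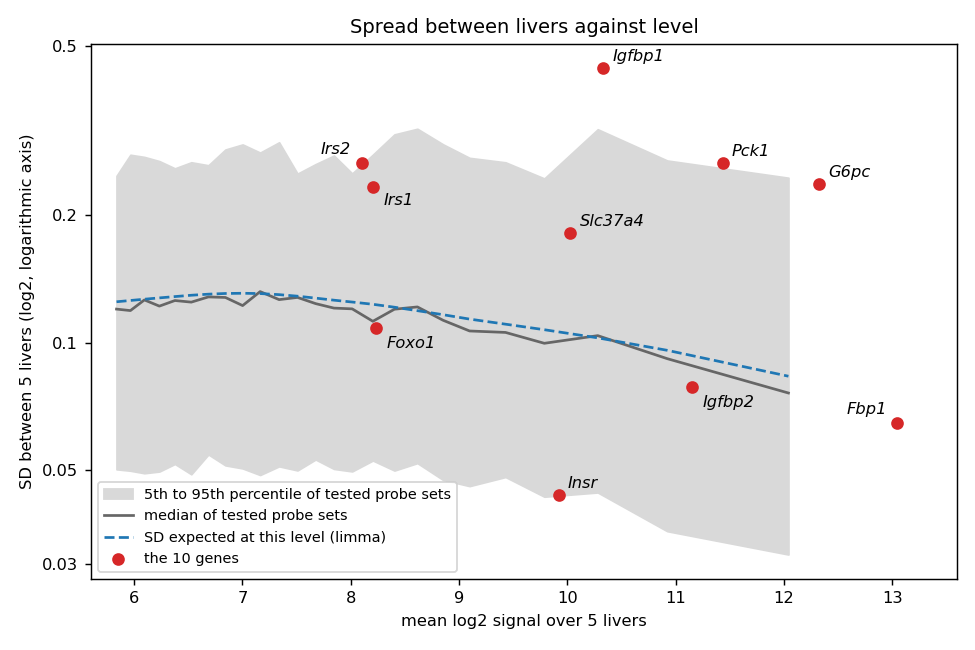
SD between the 5 livers (vertical, logarithmic axis) against mean log2 signal (horizontal axis). Grey shows the 5th to 95th percentile and the median of tested probe sets in 25 bins of level, the dashed line the SD that limma expects, and red points the 10 genes. Igfbp1 lies above the grey band at 0.44 and Insr near its lower edge at 0.04, while G6pc and Fbp1 are brighter than the median of the last bin, where the band ends.

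The median SD of the 10 genes was 0.21, against 0.12 over all tested genes, and 6 of the 10 exceeded the latter value (Igfbp1, Irs2, Pck1, G6pc, Irs1 and Slc37a4) and Foxo1, Igfbp2, Fbp1 and Insr did not. Without mouse 1 the median SD of the 10 was 0.11, against 0.12 over all genes. For 6 genes (Igfbp1, Irs2, Foxo1, Pck1, Insr and Fbp1) the SD was over 1.5 times that without 1 particular mouse. Dropping the value farthest from the rest shrinks any SD, and how often this factor is reached among other genes was not computed.

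Mouse 1 held the lowest value of 4 of the 10 genes (Igfbp1, Irs2, G6pc and Pck1), and 11.6% of all tested genes were lowest in that mouse. For Pck1 the tie with mouse 2 makes this no real order, and the count was 3 after quantile normalization. It was 6 of 10 without mouse 3 and 4 of 10 without mouse 4. The shares of all tested genes with a mouse left out were not computed, so these counts cannot be set against 11.6%. Mouse 1 also held the highest value of Slc37a4 and Foxo1. Mouse 5 was highest for 4 genes (Igfbp1, Igfbp2, Irs1 and Fbp1), against 19.2% of tested genes, and mouse 4 for 3 (Pck1, Irs2 and Insr), against 8.47%. Array 4 stood apart, and the other Insr probe set was highest in mouse 2. Irs2 was 8.28 in mouse 4 and 8.24 in mouse 5, so its order there is not firm. Averaged over the 10 genes, the deviations of mice 1 to 5 were -0.13, -0.03, 0.02, 0.04 and 0.10.

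Genes that insulin is known to induce lay the other way in mouse 1. Of 9 listed, 8 were measured. Of these 8, 7 were highest in mouse 1, against 23.9% of all tested genes, and the remaining gene, Acly, was 10.92 in mouse 1 and 10.95 in mouse 3. Srebf1, which encodes the SREBP-1c factor of lipid synthesis, had signals of 9.81, 9.68, 9.39, 9.23 and 9.37 in mice 1 to 5. Pklr, the gene of liver pyruvate kinase, had 10.30, 9.06, 10.02, 8.99 and 9.73 (SD 0.58, limma adjusted p = 0.0770). Elovl6, a fatty acid elongase gene, had 12.00, 11.49, 11.61, 11.29 and 11.43. Averaged over the 8 genes, mouse 1 deviated by 0.51 and mice 2 to 5 by -0.07, 0.24, -0.37 and -0.31. Thrsp, a regulator gene of lipid synthesis, alone passed the limma test (adjusted p = 0.0393), and of 12 alternative settings it kept the call in 2, with median centring and without mouse 5 (adjusted p 0.0046 to 0.222 over the 12). Without mouse 1, 2, 3 or 4 its adjusted p was 0.0648, 0.0638, 0.0686 and 0.168, while the SDs, 0.61, 0.83, 0.75 and 0.78, stayed near the 0.72 of the full set. The high synthesis genes of mouse 1 were known before the list was drawn up and lend no separate support.

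**Figure D3:**
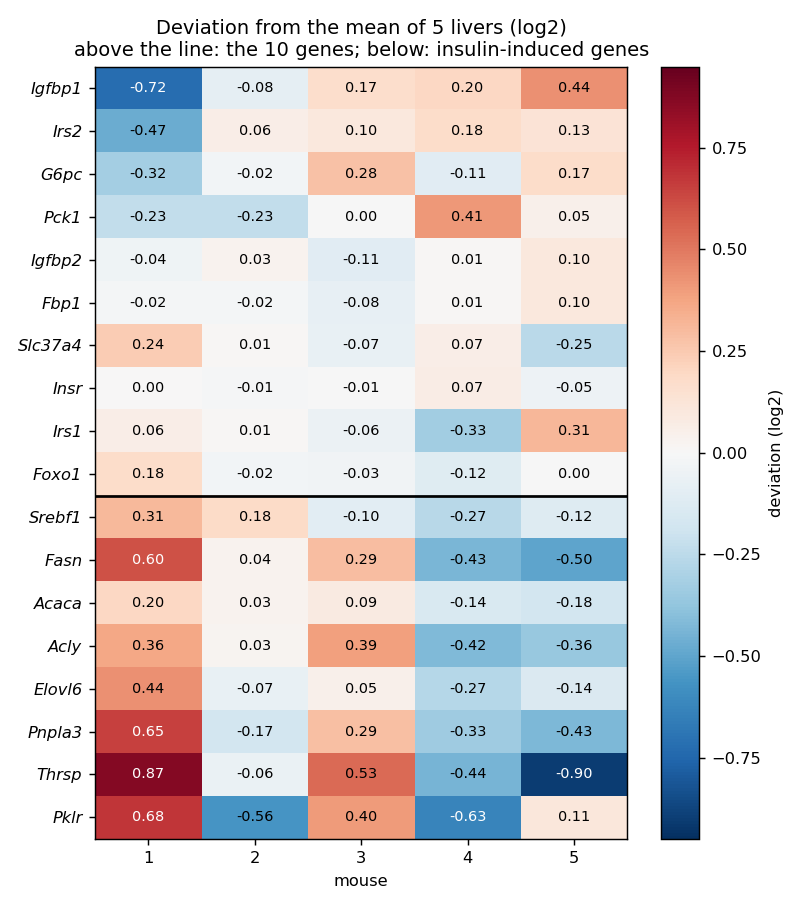
Deviation of each gene from its mean over the 5 livers (colour and printed values, log2 units) by mouse (columns). Rows above the line are the 10 genes and rows below it are 8 genes induced by insulin. In mouse 1, Igfbp1 (-0.72), Irs2 (-0.47), G6pc (-0.32) and Pck1 (-0.23) are negative and all 8 insulin-induced genes are positive.

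Markers of some other cells were also higher in mouse 1, and those of others were not. Of 8 Kupffer cell and macrophage markers, all tested and all but Marco above the floor in every liver, 7 were highest in mouse 1, with a mean deviation of 0.37 there and mean levels of 8.36 to 8.95 over the mice. The 3 tested of 4 skeletal muscle markers deviated by 0.54 (Mylpf was not above the floor on all arrays). The 2 measured erythroid markers (Alas2 and Slc4a1, of 5 listed) deviated by 0.45 in mouse 1 and also by 0.32 in mouse 3. The 5 stellate cell markers deviated by 0.19 in mouse 1. The 6 endothelial markers deviated by 0.09, the 4 cholangiocyte markers by -0.04, and the single tested lymphocyte (Cd3e) and adipocyte (Plin1) markers by -0.07 and 0.06. The 5 hepatocyte markers deviated by 0.06, with mean levels of 12.79 to 12.90 over the mice. In whole liver, fewer hepatocytes and less RNA of a gene per hepatocyte cannot be told apart, and the part of the marker differences in the low values of Igfbp1, Irs2 and G6pc was not tested. Pck1, G6pc and Fbp1 are known to be most active around the portal vein. The 3 measured periportal markers (of 6) deviated by 0.06, 0.12, -0.03, 0.02 and -0.17 in mice 1 to 5, and the 6 pericentral markers by 0.11, -0.0018, 0.06, -0.10 and -0.06.

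In the wider insulin and glucagon pathways, the signalling genes had SDs near those of all genes and the insulin-induced genes larger ones. Of 131 genes listed in 9 groups beside the 10, 119 were measured, 117 tested and 115 above the floor in all livers. The limma test called 2 of the 117 (1.71%, against 0.357% of all tested probe sets), and 17 had an unadjusted p under 0.05 (14.5%, against 6.34%). The insulin-induced genes held 7 of these 17 and 1 of the 2 calls. That list was drawn up with high values in mouse 1 already known, so these shares lend no separate support. The median SD of the 117 was 0.13, against 0.12 over all tested genes, and by list it lay between 0.10 (glucagon and cAMP) and 0.42 (insulin-induced). Of kinases and adaptors of the receptor pathway, 0 of 25 tested passed, adjusted or at an unadjusted p under 0.05, with a median SD of 0.10. Akt2, the main AKT kinase gene of liver, had signals between 10.62 and 10.78, and the regulatory subunit gene Pik3r1 had 9.56 in mouse 1, with the other livers at 9.21 to 9.38. The widest were the atypical protein kinase C genes Prkcz (SD 0.23, and 0.12 without mouse 5) and Prkci (0.20).

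Inhibitors of insulin signalling gave a like result, with 0 of 14 passing the limma test, adjusted or unadjusted, and a median SD of 0.11. Ptpn1, a phosphatase gene that acts on the receptor, had signals of 8.21 to 8.41, and Trib3, which encodes a pseudokinase that binds AKT, had its lowest value of 7.46 in mouse 1, with the other livers at 7.66 to 7.90. Trib3 was the only 1 of the 14 lowest in mouse 1, while 5 were highest there, against 11.6% and 23.9% of all tested genes. The mean deviation of the 14 in mouse 1 was 0.02. Prkce (SD 0.20, and 0.18 without mouse 4) and Socs3 (0.19, and 0.05 without mouse 4) were widest. On the glucagon side 0 of 10 tested genes passed, adjusted or unadjusted, and the glucagon receptor gene Gcgr had signals of 10.64 to 10.85. Pde4b (SD 0.25, and 0.22 without mouse 4) and Adcy9 (0.21), which encode enzymes that degrade and make cAMP, were widest.

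Among FOXO factors and other transcription genes of glucose production, 1 of 18 tested genes passed and 3 had an unadjusted p under 0.05. Onecut1, a hepatocyte factor gene known to act on the Pck1 and G6pc promoters, had signals of 9.69, 9.37, 9.62, 8.52 and 7.80 in mice 1 to 5. Mice 4 and 5 lay well below the other 3. With an SD of 0.82 it passed (limma adjusted p = 0.0296), and the call was kept in 6 of 12 alternative settings (adjusted p 0.0026 to 0.177). Without mouse 2, mouse 3 or mouse 4 the adjusted p was 0.0549, 0.0545 and 0.136, with SDs of 0.91, 0.85 and 0.89. Sik1, a kinase gene that cAMP induces and whose product restrains CRTC2, a coactivator of CREB, had 8.52, 9.11, 8.00, 9.25 and 9.47 (SD 0.60, limma adjusted p = 0.0839). The CREB partners varied less, with Crtc2 between 8.86 and 9.03 and Creb1 between 7.72 and 7.97. Ppargc1a, a coactivator of FOXO1 at Pck1 and G6pc, had 8.20 in mouse 4, whose array stood apart. The other livers were at 7.72 to 7.82 (SD 0.20, and 0.05 without mouse 4, limma adjusted p = 0.991). In mouse 4 Pck1 was highest, but G6pc had its next lowest value.

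**Figure D4:**
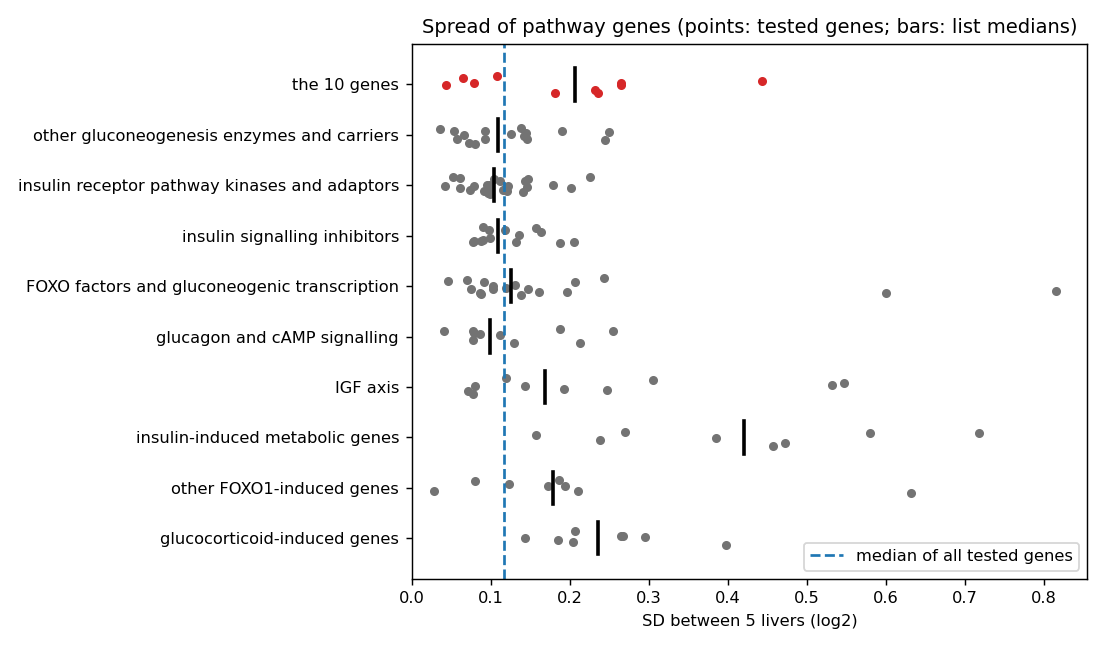
SD between the 5 livers (horizontal axis, log2 units) of the tested genes of each list (rows). Points are genes, with the 10 genes in red, black bars are list medians and the dashed line is the median of all tested genes, 0.12. The insulin-induced genes have the highest list median, 0.42, and the glucagon and cAMP genes the lowest, 0.10.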

How the data were processed

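Total RNA of 5 livers, DNase-treated and biotin-labelled per the labels' protocols, was measured on Affymetrix arrays. The authors deposited 1 log2 value per probe set and array. RMA and Affymetrix Expression Console 1.2 are named, per the submitters' processing notes, without settings. RMA corrects background, equalises array distributions and summarises probes, which compresses small differences near background. Array medians were 6.22 to 6.31. Arrays give no counts, so their number limits precision.

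Of 35556 probe sets, 21789 had 1 symbol in the platform annotation, 1621 several and 12146 none. Gene IDs matched the RefSeq table of GRCm38.p6 for 21698, which changed 0 symbols. In R 4.3.3, limma 3.58.1 fitted an intercept, and the variance (4 residual degrees of freedom) was tested against the robust trend fit (fitFDistRobustly, statmod 1.5.0, 6.21 prior degrees of freedom), adjusted by Benjamini-Hochberg at 0.05. The test was tested on simulated data. Python 3.11.15 did the rest. Alternatives were 2 normalizations, 2 filters, 2 variance fits, averaged probe sets and each mouse left out. The genes, lists and tests were chosen with earlier results of these data known. Named were the 10 genes, the 2 widest genes of each pathway list and any that passed, and 3 like genes for the 3 widest of the 10. Other genes named with values were chosen for their role after their values were available.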

Additional observations from a re-analysis of the deposited data

Results flagged for a closer look

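Irs2 in mouse 1 stood apart from the other 4 livers. Its log2 signal was 7.64 there and 8.17 to 8.28 in the others, and the gap to the nearest of them was 0.821 of the whole range, above the 95% critical value for 5 samples. Of the 10 genes it was the only one with such a mouse. Chance flags about 1 gene in 20, and 5.65% of the 13336 tested genes had a mouse apart by this measure, so 1 of 10 genes is near what other genes show.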

How the results depend on the processing

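Under all 12 alternatives (quantile normalization, median centring, 2 filters, 2 variance fits, averaged probe sets and each mouse left out) limma called 0 of the 10 genes after adjustment, and 1 to 4 had an unadjusted p under 0.05, with 1 (Pck1) without mouse 1. The lowest adjusted p of any of them was 0.0707 (Igfbp1, median centring). All 10 stayed above the floor throughout. Their median SD was 0.11 to 0.24 when single mice were left out, lowest without mouse 1. The count of all probe sets that passed limma was 52, and 142 with median centring, 29 with the stricter filter, 18 without the robust step, 24 without the trend, 31 with averaged probe sets and 0 to 69 with single mice left out (0 without mouse 4, where 864 had an unadjusted p under 0.05). No paired analysis was possible because the labels give 1 group.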

Other observations

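Other members of the insulin-like growth factor axis differed between the livers more than the receptor pathway did. Of the 10 genes of this list 0 passed the limma test and 3 had an unadjusted p under 0.05 (Igf2, Igfbp3 and Igf2r), against 6.34% of tested probe sets, with a median SD of 0.17. Igfbp3, the main carrier of insulin-like growth factors in blood, had log2 signals of 8.74, 8.02, 8.29, 7.78 and 7.33 in mice 1 to 5 (SD 0.53, limma adjusted p = 0.150), and so was highest in the mouse with the lowest Igfbp1 and lowest in the mouse with the highest. Igf2, a growth factor gene of fetal liver, had 7.54 in mouse 5, with the other livers at 6.17 to 6.42 (SD 0.55, and 0.11 without mouse 5, limma adjusted p = 0.153). Igf1, the main growth factor gene of adult liver, lay between 11.23 and 11.52.

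Of 8 other genes that FOXO1 is known to induce, 0 passed limma and 1 had an unadjusted p under 0.05. That was Bcl6, a repressor gene, with 8.19 in mouse 4 and the other livers at 6.60 to 7.09 (SD 0.63, and 0.23 without mouse 4, whose array stood apart, limma adjusted p = 0.0987), and Gadd45a followed with an SD of 0.21. Of the 8, 0 were lowest in mouse 1 and 4 were highest there, against 11.6% and 23.9% of all tested genes. Their mean deviation in mouse 1 was 0.13, opposite in sign to those of Igfbp1, Irs2, G6pc and Pck1. Of 8 glucocorticoid-induced genes, 0 passed limma and 3 had an unadjusted p under 0.05, with Per1 (SD 0.40), also a clock gene, and Lpin1 (0.29) widest. Per1 was 7.43 in mice 4 and 5, 7.17 in mouse 1 and 6.64 to 6.65 in mice 2 and 3.

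The genes whose centred values lay closest to those of Igfbp1 over the 5 mice, among 12563 compared, were Fabp4 (root mean square difference 0.185), the pseudogene Btnl5-ps (0.187) and Irs2 (0.191), where Igfbp1 itself had a root mean square deviation of 0.396. Closest to Irs2 were Fabp3 (0.0531), Chrna9 (0.0628) and Sbpl (0.0630), of an own deviation of 0.237. Fabp3, a gene of a fatty acid binding protein known from heart, had log2 signals of 10.86, 11.39, 11.37, 11.38 and 11.49 in mice 1 to 5. Closest to Pck1 were Lce1j (0.0535), Sfi1 (0.0614) and Krtap5-3 (0.0643), and Lce1j and Krtap5-3 encode proteins of skin and hair. Like Pck1, all of these were highest in mouse 4, whose array stood apart. These likenesses rest on 5 values each and carry no test. Chrna9 did not exceed the floor on every array.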
